A study of Homo sapiens with 9 samples.

Results

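The death-inducing signalling complex (DISC) and the inhibitor of apoptosis (IAP) proteins were followed through 8 genes of 60234 gene identifiers in the count table. They were taken by symbol: the initiator caspases CASP8 and CASP10, the adaptor FADD, the caspase-8 regulator CFLAR, the kinase RIPK1, and the IAP genes XIAP, BIRC2 and BIRC3. All 8 had a row, and all 8 passed the filter on low counts that left 15847 genes to test. RNA was sequenced from Ramos, an established EBV-negative Burkitt lymphoma B cell line, as 9 libraries in 3 groups. Cells were untreated (0 h) or were kept in 3 µM CHIR99021, an inhibitor of the kinase GSK-3, for 3 h or 6 h, with 3 biological replicates each. No group was untreated for 3 h or 6 h, so the drug and the time in the treated culture cannot be told apart. All groups are the same cell line, which stands for 1 tumour. Levels are read counts normalised to library size after scaling by TMM factors (CPM), and changes are on the log2 scale unless given as a fold.

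Ligand-bound death receptors such as FAS and the TRAIL receptors recruit the adaptor FADD, which in turn gathers procaspase-8 and procaspase-10. Neighbouring caspase-8 molecules activate each other on this platform, and the CFLAR product cFLIP, a caspase-8 relative without a working active site, competes for places in it. Active caspase-8 cleaves downstream caspases, which XIAP can inhibit, and the protein BID, which carries the signal to mitochondria. RIPK1 is held at TNF receptors by ubiquitin chains that the BIRC2 and BIRC3 products (cIAP1 and cIAP2) build. When those chains are lost, RIPK1 can enter a complex with FADD and caspase-8 or start necroptosis. Both BIRC3 and CFLAR are textbook targets of the transcription factor NF-kappaB, which is active in many B cell lymphomas.

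BIRC3 and BIRC2 are chromosome 11 neighbours, of which BIRC3 fell here and BIRC2 had no called change with TMM scaling. A 10-base NF-kappaB motif was found in windows before annotated starts of BIRC3 and CFLAR. For these reasons sequences near the starts of BIRC3, BIRC2 and CFLAR are shown. They come from RefSeq (GRCh38.p14, plus strand, which is the coding strand of all 3 genes), and capitals mark the motif on either strand. The BIRC3 stretch, chr11:102317234-102317449, holds 216 bases, with matches beginning 199 and 135 bases before the RefSeq start site. It ends before the first GENCODE v29 exon base, which lies ahead of that RefSeq start, so the matches are nearer to the GENCODE exon. The BIRC2 stretch, chr11:102346964-102347210, holds 247 bases and no match. Of CFLAR, the 30 bases at chr2:201118609-201118638 surround a match 97 bases before a RefSeq start, but they lie inside an exon of another CFLAR transcript in GENCODE v29, so this match is not upstream of the whole gene.
BIRC3: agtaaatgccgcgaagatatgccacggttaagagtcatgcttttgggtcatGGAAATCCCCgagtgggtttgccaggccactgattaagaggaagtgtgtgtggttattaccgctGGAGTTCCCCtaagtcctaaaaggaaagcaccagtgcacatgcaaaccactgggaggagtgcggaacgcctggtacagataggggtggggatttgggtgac
BIRC2: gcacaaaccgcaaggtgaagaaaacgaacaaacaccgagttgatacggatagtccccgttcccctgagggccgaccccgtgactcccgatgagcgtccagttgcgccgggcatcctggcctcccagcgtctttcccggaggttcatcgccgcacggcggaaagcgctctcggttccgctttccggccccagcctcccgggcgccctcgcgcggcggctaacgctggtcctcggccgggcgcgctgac
CFLAR: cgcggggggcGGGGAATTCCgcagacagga

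These stretches also differ in base composition, with 51.9% G or C in front of BIRC3 and 67.6% in front of BIRC2. The search covered both strands of the 250 bases before each annotated start, over 35116 such windows of all genes and 17 windows of the 7 members that had any. Some windows of XIAP, RIPK1 and BIRC2 overlap each other, so the 17 are not separate sequences. The NF-kappaB motif was found in 2 of the 17, against 5.21% of all windows. The E-box CACGTG, a motif that MYC binds, was found in 0 of the 17, against 6.34% of all windows. The TCF/LEF motif CTTTGAN, through which beta-catenin acts, was found in 1 of the 17, a CFLAR window, against 11.1% of all windows. The heat shock element GAANNTTC was found in 2 of the 17, in a CASP8 and a CFLAR window, against 5.78% of all windows. A match is a string of letters in a short window and was not tested for binding.

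The libraries held 46359911 to 52880876 reads in genes. At that depth a gene with a count of 0 may still stand at 0.0567 to 0.0647 CPM by library size alone, counting error only. Of all tested genes, 77.7% differed among the 3 times in edgeR's quasi-likelihood F test. Untreated replicate 3 stood apart from the other untreated libraries, with a chi-square per degree of freedom of 33.1 and 29.7 against them, where these differed by 1.75 and treated pairs by 2.74 to 14. Calls of the 8 genes and counts of gene lists against 0 h that move without it are given with that value. Of the 8 B cell markers all were found, with 156057 to 203499 reads summed per library, and the lowest sums were at 3 h. The T and NK cell markers summed to 8 to 10 reads at 0 h, 1 to 3 at 3 h and 1 to 2 at 6 h, with CD3D, CD2 and CD8A at 0 in every library. Myeloid markers summed to at most 9 reads and epithelial and fibroblast markers to at most 1. AXIN2, a feedback gene of beta-catenin signalling that serves as a sign of GSK-3 inhibition, was at 1.99 ± 0.247, 3.99 ± 0.300 and 6.62 ± 0.309 CPM at 0 h, 3 h and 6 h (mean ± SD, n = 3), and it rose at both times. It is 1 of 6 tested genes of beta-catenin feedback, of which 2 rose and 1 fell at 3 h and 3 rose and 2 fell at 6 h (2 and 2, and 3 and 1, without untreated replicate 3). Shares of all tested genes were 32.8% higher and 33.5% lower at 3 h, and 35.7% and 35% at 6 h. NOTUM, scarce at 0.973 ± 0.141 CPM, fell at 3 h and 6 h, and NKD2, at 0.379 ± 0.144 CPM, fell at 6 h, a call lost without untreated replicate 3 (adjusted p = 0.0519).

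The 8 genes split evenly by direction at 3 h. FADD, RIPK1 and XIAP rose, CASP10, CFLAR and BIRC3 fell, and CASP8 and BIRC2 did not pass, so 6 of 8 differed at an edgeR adjusted p under 0.05 (7 without untreated replicate 3, CASP8 being added). Across all tested genes 66.3% did so (32.8% higher and 33.5% lower), so a share of this size is near the background. In 7 of the 8 (all but BIRC2) the libraries at 3 h and at 0 h did not overlap in CPM, against 70.2% of all genes. The same held at 6 h against 0 h, where the background was 71.7%. Overlap was counted after TMM scaling only. Changes past the test and of at least 1.5-fold were 2 higher (RIPK1 and XIAP, background 14.5%) and 2 lower (CASP10 and CFLAR, background 19.5%) at 3 h. At 6 h CASP8 joined the genes that rose, which made 4 higher and 3 lower, against a background of 70.8% (35.7% higher and 35% lower). RIPK1 and XIAP were then higher by 1.5-fold or more (2 genes, background 17.2%), and CASP10 was lower by as much (1 gene, background 22.2%). Between 3 h and 6 h, 4 of 8 differed, against 43.4% of all genes (21.5% higher and 21.9% lower): CASP8 and CFLAR were higher at 6 h, and RIPK1 and XIAP were lower. These 4 did not overlap between the times either (background 55.2%), and 0 reached 1.5-fold in either direction, against 4.87% of all genes higher and 6.01% lower. The median log2 fold change of the 8 was 0.11 at 3 h and 0.16 at 6 h, where that of all tested genes was -0.01 and 0.02. The comparisons of 3 h and 6 h with 0 h share the untreated libraries, so they are not independent.

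**Figure D1:**
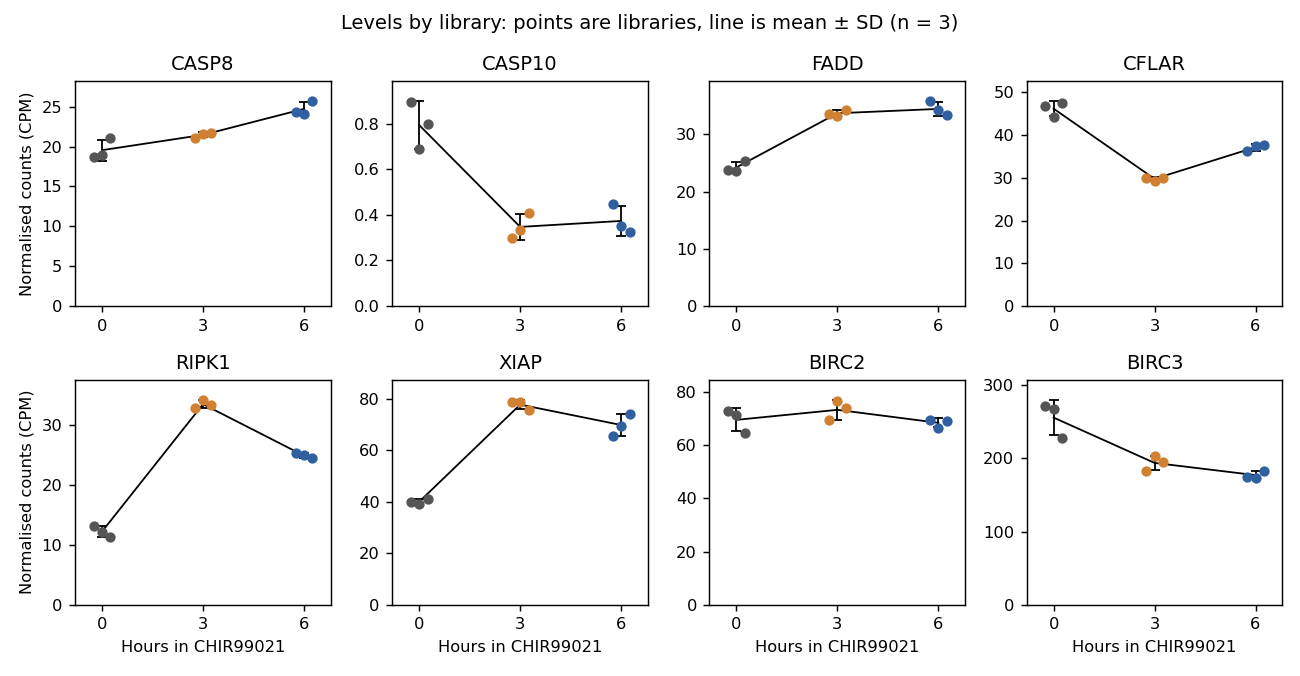
Normalised read counts (CPM, vertical axis, from 0) of the 8 genes against hours in CHIR99021. Points are libraries, and the line joins group means with SD (n = 3). RIPK1 and XIAP stand highest at 3 h, CFLAR lowest at 3 h, and the BIRC2 points of the 3 times overlap.

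The 8 genes differed widely in level before treatment. Per kilobase of exon, BIRC3 was the most abundant at 34.0 RPKM (CPM per kilobase), followed by BIRC2 at 15.3 and FADD at 13.2. XIAP followed at 4.43, RIPK1 at 2.88, CASP8 at 2.70 and CFLAR at 2.05 RPKM, and CASP10 came last at 0.104. Untreated libraries of RIPK1 and CASP8 overlapped in this order, and no other pair of neighbours did. The place of CASP8 depends on the length used, since its annotated exons span 7.243 kb in all and its principal transcript 1.629 kb. With principal transcript lengths CASP8 stood at 12.002 RPKM, below FADD (13.2) and above XIAP (4.65). The order of RIPK1 and CFLAR at 0 h turned as well, with 2.93 RPKM for RIPK1 and 3.15 for CFLAR by those lengths. At 3 h RIPK1 stood above CFLAR by either length, at 7.89 against 1.32 RPKM over all exons.

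CASP8 (ENSG00000064012, chromosome 2) encodes the initiator caspase of the DISC. Its level was 18.7, 18.9 and 21.0 CPM in the untreated libraries, 21.1, 21.6 and 21.7 CPM at 3 h, and 24.4, 24.1 and 25.7 CPM at 6 h. On this TMM scale all 3 h libraries lay just above the highest untreated one, and all 6 h libraries lay above all 3 h ones. The separation at 3 h depends on the scaling. The 3 h change was -0.019 with upper-quartile factors and -0.067 with library size alone. The log2 fold change was 0.14 (SE 0.060, edgeR adjusted p = 0.0610) at 3 h, with an approximate 95% interval of 0.02 to 0.25. Without untreated replicate 3, the highest of its group, it was 0.19 and passed (adjusted p = 0.00578). At 6 h CASP8 rose by 0.34 (SE 0.060, edgeR adjusted p = 1.64e-04), or 1.26-fold. With libraries scaled by size alone that call was lost (log2 fold change 0.10, adjusted p = 0.146). Between 3 h and 6 h it rose by 0.20 (adjusted p = 0.0138).

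CASP10 (ENSG00000003400), which lies beside CASP8 and CFLAR on chromosome 2, encodes the other initiator caspase that the DISC recruits. Its RNA was scarce in Ramos cells, with 50, 40 and 43 reads in the untreated libraries. At 3 h there were 14, 17 and 20 reads and at 6 h 21, 16 and 14, so every treated library lay below every untreated one. This corresponds to 0.793 ± 0.103, 0.347 ± 0.0555 and 0.373 ± 0.0650 CPM (SD, n = 3). The log2 fold change was -1.18 (SE 0.22, edgeR adjusted p = 3.39e-04) at 3 h and -1.08 (SE 0.22, edgeR adjusted p = 6.65e-04) at 6 h. Treated groups overlapped, and the interval of their difference, -0.41 to 0.62, is wide at this depth.

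FADD (ENSG00000168040, chromosome 11) encodes the adaptor whose death domain binds the receptor and whose death effector domain binds the caspases. It stood at 23.7, 23.6 and 25.4 CPM at 0 h, 33.6, 33.2 and 34.2 CPM at 3 h, and 35.7, 34.1 and 33.4 CPM at 6 h. The treated libraries lay well above the untreated ones and overlapped with each other. FADD rose by 0.48 (SE 0.053, edgeR adjusted p = 2.28e-06), or 1.39-fold, at 3 h and by 0.51 (1.42-fold) at 6 h. Between 3 h and 6 h the log2 difference was 0.03, with an interval of -0.07 to 0.13 and an adjusted p of 0.652. An annotated antisense gene covers 54.9% of the FADD exon bases and had 0 reads in all libraries.

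CFLAR (ENSG00000003402, chromosome 2) had the opposite shape, with its lowest level at 3 h and a partial return at 6 h. The untreated libraries gave 46.7, 44.3 and 47.5 CPM, those at 3 h 30.004, 29.3 and 29.9 CPM, and those at 6 h 36.2, 37.4 and 37.8 CPM. No libraries of different times overlapped. CFLAR fell by 0.63 on the log2 scale (SE 0.049, edgeR adjusted p = 5.90e-08), or 1.55-fold, at 3 h. At 6 h it was still lower than at 0 h by 1.24-fold (log2 fold change -0.31, edgeR adjusted p = 5.21e-05), and between 3 h and 6 h it rose by 0.32 (adjusted p = 1.69e-04). The fall at 6 h did not pass a test against a minimum fold of 1.2 (adjusted p = 0.0977). Gene counts join the long and short forms of cFLIP, which differ in their effect on caspase-8, so the forms cannot be told apart here.

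**Figure D2:**
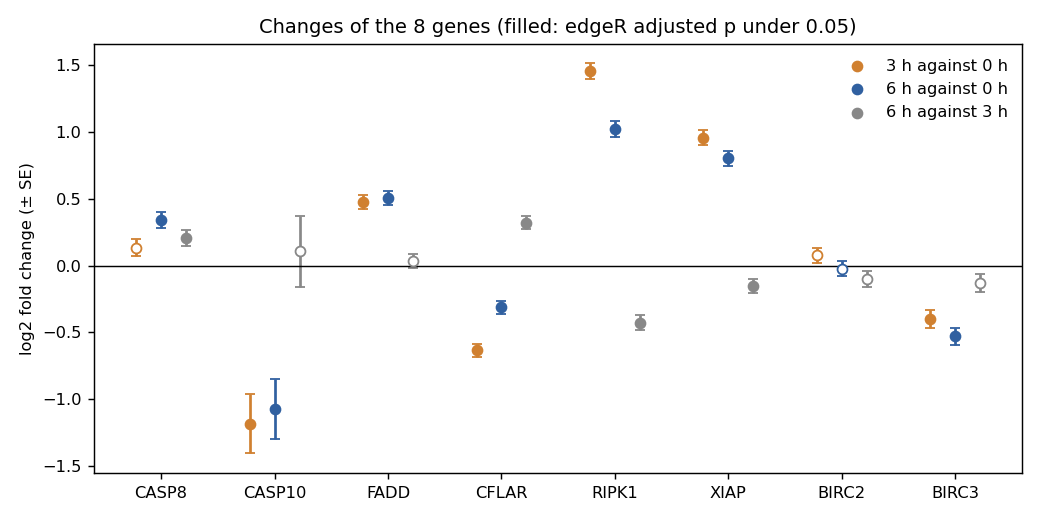
Log2 fold changes (vertical axis, bars are SE) of the 8 genes for 3 h against 0 h, 6 h against 0 h and 6 h against 3 h, with filled points for an edgeR adjusted p under 0.05. RIPK1 has the highest point (1.45 at 3 h), CASP10 the lowest and the longest bars, and no BIRC2 point is filled.

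Because CFLAR fell while CASP8 did not, the balance of their reads was compared within each library, where library scaling cancels. A read ratio across genes also reflects gene length, so only its change between times is read. There were 2.50, 2.34 and 2.26 CFLAR reads per CASP8 read in the untreated libraries, 1.42, 1.36 and 1.38 at 3 h, and 1.49, 1.55 and 1.47 at 6 h. The geometric mean thus went from 2.36 to 1.39 and 1.502, a 1.71-fold lower ratio at 3 h and a 1.57-fold lower ratio at 6 h. The groups did not overlap, and the exact permutation test (two-sided) gave p = 0.1 for each pair of times, the smallest that 3 against 3 libraries allow (0.115 after Benjamini-Hochberg adjustment over 15 tests of 5 ratios, 1 of which is not reported).

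The other DISC ratios moved as well. FADD reads per CASP8 read had geometric means of 1.24 at 0 h, 1.57 at 3 h and 1.39 at 6 h, with no overlap between times. CASP10 reads per CASP8 read went from 0.0408 to 0.0165 and 0.0154, and here the treated groups overlapped (exact permutation p = 0.6 between 3 h and 6 h). So relative to CASP8 reads, FADD reads were more frequent and CFLAR and CASP10 reads less frequent in every treated library than in any untreated one.

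**Figure D3:**
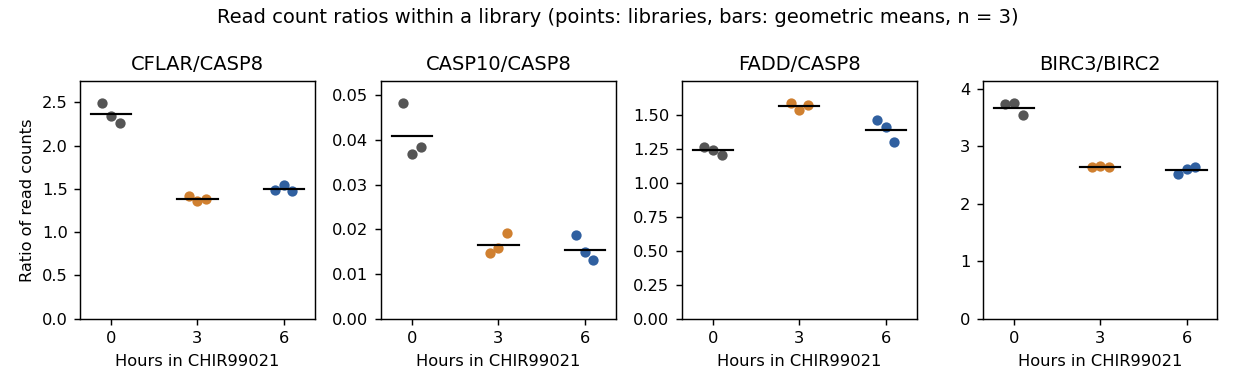
Ratio of read counts of 2 genes within a library (vertical axes, from 0) against hours in CHIR99021. Points are libraries and bars are geometric means (n = 3). CFLAR/CASP8, CASP10/CASP8 and BIRC3/BIRC2 are lower, and FADD/CASP8 higher, in all treated libraries than in all untreated ones.

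RIPK1 (ENSG00000137275, chromosome 6), the kinase that takes part in survival signalling at TNF receptors, in caspase-8 activation and in necroptosis, had the largest change of the 8 at 3 h. The untreated libraries gave 13.1, 12.1 and 11.3 CPM, those at 3 h 32.8, 34.1 and 33.3 CPM, and those at 6 h 25.2, 24.9 and 24.4 CPM. The 3 groups were far apart relative to their spread. RIPK1 rose by 1.45 (SE 0.060, edgeR adjusted p = 1.62e-10), or 2.74-fold, at 3 h, and 1.45% of all tested genes rose further. At 6 h it was 2.04-fold above 0 h (log2 fold change 1.03, edgeR adjusted p = 2.69e-09), having fallen by 0.43 since 3 h (adjusted p = 5.3e-05). An antisense gene that overlaps 5.63% of its exon bases had 19 to 32 reads per library.

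XIAP (ENSG00000101966, chromosome X) encodes an IAP that binds and inhibits caspases, CASP9 among them. Its level was 39.8, 39.1 and 41.1 CPM at 0 h, 78.8, 78.5 and 75.7 CPM at 3 h, and 65.7, 69.6 and 74.1 CPM at 6 h. Every treated library was more than 1.5-fold above every untreated one. XIAP rose by 0.96 (SE 0.054, edgeR adjusted p = 2.40e-09), or 1.94-fold, at 3 h and was 1.74-fold above 0 h at 6 h. Between 3 h and 6 h it fell by 0.16 (adjusted p = 0.0293), and this call was lost without 3 h replicate 5 or 6, or without 6 h replicate 9 or 10 (adjusted p = 0.0621 to 0.141).

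BIRC2 (ENSG00000110330) encodes cIAP1, a ubiquitin ligase of RIPK1. It stood at 72.6, 71.3 and 64.5 CPM at 0 h, 69.3, 76.5 and 73.8 CPM at 3 h, and 69.5, 66.4 and 69.2 CPM at 6 h. The libraries of the 3 times overlapped. The log2 fold change was 0.08 (interval -0.04 to 0.19, edgeR adjusted p = 0.258) at 3 h and -0.02 (interval -0.14 to 0.09, adjusted p = 0.732) at 6 h. The result depends on the scaling: with upper-quartile factors or library size alone the value at 6 h was -0.17 or -0.26, and both passed (adjusted p = 0.0105 and 8.97e-04).

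BIRC3 (ENSG00000023445) encodes cIAP2 and lies next to BIRC2. It was the most abundant of the 8 at every time, at 271, 268 and 228 CPM at 0 h, 183, 203 and 195 CPM at 3 h, and 175, 173 and 183 CPM at 6 h. All treated libraries lay below all untreated ones, and the 3 h and 6 h groups overlapped at their edges. BIRC3 fell by 0.40 (SE 0.065, edgeR adjusted p = 9.68e-05), or 1.32-fold, at 3 h and by 0.53 (edgeR adjusted p = 5.67e-06), or 1.44-fold, at 6 h. The log2 difference between 3 h and 6 h was -0.13 (adjusted p = 0.127), and it passed without untreated replicate 3 (adjusted p = 0.0169) and when only the 3 h and 6 h libraries were fitted (adjusted p = 0.0165).

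The neighbours thus differed in behaviour. There were 3.73, 3.76 and 3.54 BIRC3 reads per BIRC2 read in the untreated libraries, 2.64, 2.65 and 2.64 at 3 h, and 2.52, 2.61 and 2.65 at 6 h. The untreated libraries lay apart from the treated ones, whose groups overlapped (exact permutation p = 0.1 against 0 h at both times and 0.3 between 3 h and 6 h). TMEM123, the protein-coding gene on the other side of BIRC2, rose by 0.31 at 3 h and by 0.22 at 6 h, the latter call being lost with upper-quartile factors (adjusted p = 0.12) and turned with library size alone (-0.015). TMEM123-DT, a noncoding gene beyond it, fell from 88 to 110 reads per untreated library to 15 to 20 at 3 h and 3 to 7 at 6 h. Beside other members, TRAK2 near CASP8 rose by 0.70 at 3 h, PPFIA1 near FADD rose by 0.41, and BPHL near RIPK1 fell by 0.50. Most other neighbours of the 8 genes had too few reads to be tested.

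Among other caspases, each tested gene moved by less than 1.5-fold. Of 5 tested, 1 rose and 2 fell at 3 h and again at 6 h, with medians of 0.00 and -0.10. Without untreated replicate 3, 1 fell at 3 h. Background shares were 32.8% higher and 33.5% lower at 3 h, and 35.7% and 35% at 6 h. CASP2 rose by 0.44 and 0.36, from 95.1 ± 3.09 to 129 ± 5.09 and 122 ± 3.50 CPM. CASP6, an effector caspase that cuts nuclear lamins, fell by 0.41 at 3 h and by 0.23 at 6 h. CASP9, the initiator of the mitochondrial route, was at 16.8 ± 0.929, 16.8 ± 0.165 and 14.3 ± 0.299 CPM and fell by 0.23 at 6 h (edgeR adjusted p = 0.00439). The inflammatory caspase CASP1, scarce at 1.41 ± 0.199 CPM untreated, fell by 0.52 at 3 h. That call was lost without untreated replicate 3 (edgeR adjusted p = 0.0604) or 3 h replicate 5 (0.0718), and against a minimum fold of 1.2 (0.0654). CASP2 was called higher at both times with upper-quartile factors and with library size alone as well.

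Genes of the mitochondrial route split at 3 h and leaned upward by 6 h. Of 9 tested, 3 rose and 3 fell at 3 h, 6 rose and 3 fell at 6 h, and 8 rose and 0 fell between 3 h and 6 h, where 21.5% of all genes rose. The background against 0 h was 32.8% higher and 33.5% lower at 3 h, and 35.7% and 35% at 6 h. BID, the caspase-8 substrate that links the DISC to mitochondria, rose from 35.7 ± 2.22 to 51.8 ± 0.0460 and 58.8 ± 1.77 CPM. CYCS, cytochrome c, rose by 0.75 and 1.15. APAF1, the scaffold on which cytochrome c activates caspase-9, fell 2.29-fold at 3 h and 1.95-fold at 6 h. Of the pore-forming pair that BID acts on, BAX fell by 0.38 at 3 h and 0.18 at 6 h, while BAK1 did not pass at 3 h and rose by 0.32 at 6 h. The BAX libraries at 6 h overlapped the untreated ones (edgeR adjusted p = 0.0364). DIABLO, which displaces XIAP from caspases, rose by 0.28 and 0.35, while HTRA2, with a like function, fell by 0.68 and 0.37. The DIABLO rise at 3 h was lost with upper-quartile factors (0.12, edgeR adjusted p = 0.097) and with library size alone (0.075, 0.281). Its rise at 6 h was lost with library size alone (0.11, 0.1155). Against a minimum fold of 1.2 neither DIABLO rise passed (edgeR adjusted p = 0.319 and 0.0657). With library size alone, 2 of the 9 genes rose and 6 fell at 3 h, and 3 rose and 3 fell at 6 h. Without untreated replicate 3, 2 fell at 6 h.

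Among 6 tested genes of other BIR-domain proteins and IAP regulators, 4 rose and 0 fell at 3 h and again at 6 h, with medians of 0.34 and 0.43. The background was 32.8% higher and 33.5% lower at 3 h, and 35.7% and 35% at 6 h. BIRC5, survivin, rose from 163 ± 6.55 to 222 ± 8.30 and 231 ± 14.2 CPM. UBE2O rose by 1.09 and 0.88 and USP19, a deubiquitinase, by 0.19 and 0.36. The USP19 rise at 6 h was lost with library size alone (0.12, edgeR adjusted p = 0.0620). BIRC6 varied widely between libraries of a time (112 ± 32.5 CPM at 0 h) and did not pass. With upper-quartile factors 2 rose at 3 h.

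Regulators of the DISC were mostly higher, where the background was 32.8% higher and 33.5% lower at 3 h and 35.7% and 35% at 6 h. Of 12 tested, 8 rose and 1 fell at 3 h, and 7 rose and 2 fell at 6 h (medians 0.40 and 0.32). The largest change was that of HSPA5, the chaperone GRP78, at 325 ± 2.07 CPM untreated and 2205 ± 21.9 CPM at 3 h (log2 fold change 2.76, SE 0.050). DEDD2, a death effector domain protein, rose by 0.45 at 3 h and by 1.31 at 6 h. CUL3 and ITCH, ubiquitin ligases with caspase-8 and cFLIP among their substrates, rose by 0.58 and 0.59 at 3 h. PEA15, a death effector domain protein that binds FADD and caspase-8, rose by 0.43 at 3 h and had returned to a log2 fold change of 0.09 by 6 h (adjusted p = 0.0962). TNFAIP8 fell by 0.73 at 3 h and by 0.66 at 6 h. With library size alone, the split at 6 h was 5 higher and 5 lower. Without untreated replicate 3, 2 fell at 3 h and 3 at 6 h.

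The TNF receptor complex in which RIPK1 and the cIAP proteins work changed in both directions. Background shares were 32.8% higher and 33.5% lower at 3 h, and 35.7% and 35% at 6 h. Of 21 tested genes 11 rose and 6 fell at 3 h, and 8 rose and 7 fell at 6 h. Under library size alone the 3 h split was 6 higher and 9 lower, and without untreated replicate 3 it was 8 higher and 6 lower, with 10 higher and 7 lower at 6 h. The TRAF genes parted at 3 h. TRAF3 rose 3.43-fold, from 1.67 ± 0.175 to 5.73 ± 0.177 CPM, and TRAF2 rose 1.39-fold. TRAF1 fell 2.61-fold and TRAF5 fell 2.06-fold. At 6 h the TRAF2 rise was 1.53-fold and the TRAF1 fall 2.17-fold. CYLD, the deubiquitinase that strips chains from RIPK1, fell by 0.95 at 6 h (edgeR adjusted p = 9.24e-08), and its partner SPATA2 rose by 0.56. Of the linear ubiquitin ligase, RBCK1 fell by 0.66 and the catalytic subunit RNF31 rose by 0.52 at 6 h.

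Necroptosis genes, which act when caspase-8 is blocked, gave 2 higher and 2 lower of 6 at 3 h and 3 higher and 2 lower at 6 h. Across all tested genes 32.8% were higher and 33.5% lower at 3 h, so the 3 h counts are near the background. The shares at 6 h were 35.7% and 35%. RIPK3, the kinase partner of RIPK1, went from 7.60 ± 0.339 to 5.01 ± 0.289 and 6.22 ± 0.257 CPM and fell at both times. MLKL, which ruptures the membrane, was at 1.69 ± 0.0391, 1.55 ± 0.144 and 2.91 ± 0.216 CPM and rose by 0.79 at 6 h (edgeR adjusted p = 3.12e-05). PGAM5, a mitochondrial phosphatase, rose by 0.83 and 0.86. PELI1, a ubiquitin ligase of RIPK1 and RIPK3, fell by 0.43 and 0.72. RIPK1 was thus higher and RIPK3 lower than at 0 h at both times.

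Genes of the demolition phase of apoptosis, caspase substrates and the nuclease DFFB, gave 4 higher and 2 lower of 10 at 3 h (4 and 3 without untreated replicate 3), and 6 higher and 3 lower at 6 h. Background shares were 32.8% higher and 33.5% lower at 3 h, and 35.7% and 35% at 6 h. DFFB, which cuts DNA once caspases cleave its inhibitor, rose 1.82-fold at 6 h, with a log2 fold change of 0.00 at 3 h. That inhibitor, DFFA, fell by 0.62 at 3 h and rose by 0.20 at 6 h, the latter call being lost with upper-quartile factors (adjusted p = 0.415). PANX1, a membrane channel that caspases open, rose 2.19-fold at 3 h, and GSN, gelsolin, fell 2.91-fold. LMNB1, the nuclear lamin B1, rose by 0.75 at 3 h and 0.50 at 6 h.

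NF-kappaB targets, among which BIRC3 and CFLAR are usually counted, leaned downward. Of 15 tested genes other than these members, 4 rose and 9 fell at 3 h and 4 rose and 8 fell at 6 h, with medians of -0.17 and -0.28. Without untreated replicate 3, 3 rose and 8 fell at 3 h. The background was 32.8% higher and 33.5% lower at 3 h, and 35.7% and 35% at 6 h. BCL3 fell 4.17-fold at 3 h, from 12.8 ± 1.01 to 3.08 ± 0.312 CPM, and CD40 fell 1.92-fold. RELB fell by 0.80 at 6 h. NFKBIA, the inhibitor that NF-kappaB itself induces, rose by 0.58 at 3 h and 0.26 at 6 h, and CD83 rose 1.99-fold at 3 h. The NFKBIA rise at 6 h was lost with upper-quartile factors (0.12, edgeR adjusted p = 0.0675) and with library size alone (0.027, 0.645). Nor did that rise pass an edgeR test against a minimum fold of 1.2 (adjusted p = 0.368). The direction was therefore not shared by all of the list. TRAF1 and TNFAIP3 are in this list and in that of the TNF receptor complex. TRAF2 is in the TNF receptor complex list and in that of the DISC regulators.

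**Figure D4:**
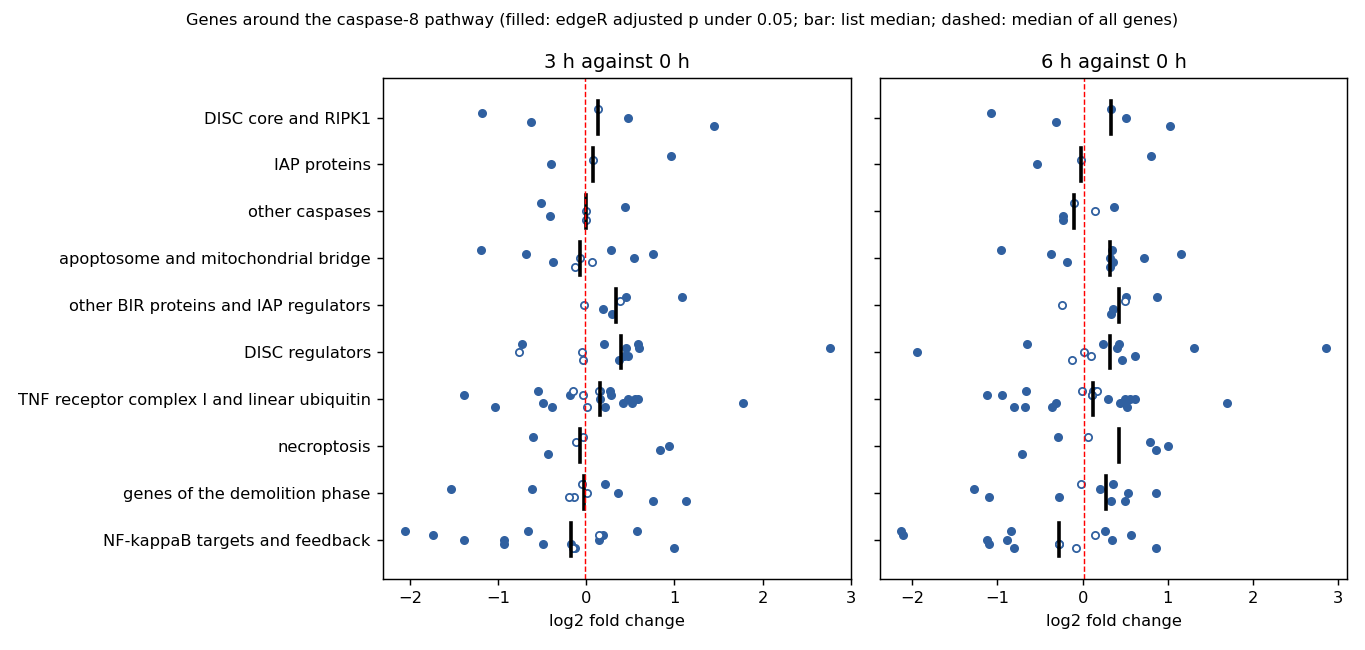
Log2 fold changes (horizontal axes) of tested genes in 10 lists around the caspase-8 pathway, at 3 h and 6 h against 0 h. Filled points passed an edgeR adjusted p under 0.05, black bars are list medians, and the dashed line is the median of all tested genes (-0.01 and 0.02). Regulators of the DISC lie mostly to the right and NF-kappaB targets mostly to the left.

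The genes whose log2 CPM ran most like a member over the 9 libraries were sought among those with a symbol and a mean of at least 5 CPM. These correlations share the 9 libraries and their 3 groups and are descriptions only. For CFLAR the closest were SLC35B3 (Pearson r = 0.997), TMEM69 and OXA1L, which likewise had lower values at 3 h than at 6 h. For RIPK1 FASTKD3 was among the closest (0.999), and for XIAP PTRH2 (0.996). For FADD the closest was PPAN (0.997), for BIRC3 MBTPS2 (0.992), for CASP10 SMIM8 (0.989) and for CASP8 PET100 (0.987). BIRC2 had the weakest best match, SMC3 (0.937). Among the members themselves RIPK1 and XIAP ran closest (0.977), and CFLAR and RIPK1 were the most opposed (-0.965).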

How the data were processed

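Whole-number counts for each Ensembl identifier were deposited for 9 libraries. GSNAP, HTSeq 0.6.0, limma 3.30.0 and build hg19 are named per the submitters' processing notes. Strand setting, counting mode and annotation release: not given in the sources used here. Reads of overlapping or antisense genes may therefore be shared. Entries that name no gene (29.1% to 32.4% of reads) were set aside. Counts were fitted with edgeR 4.0.16 in R 4.3.3 (filterByExpr, minimum count 10 and total 15; TMM factors, 1.10 to 1.12 at 0 h and 0.922 to 0.966 in treated libraries; robust quasi-likelihood, a mean per time, 6 residual degrees of freedom; two-sided; Benjamini-Hochberg over 15847 genes, threshold 0.05). The SE is the log2 fold change divided by the square root of F, and intervals are approximate 95% ones from it. Ratios used counts plus 0.5 with an exact permutation test. Symbols and exon lengths (GENCODE v29, GRCh38) were matched by identifier, and gene coordinates of the counts are not printed. Replicates are biological per the series, and their sources are not described further. Alternatives were DESeq2 1.42.0, limma-voom 3.58.1, other scalings and filters, a fit of only the compared groups, a test against a 1.2-fold minimum, and leaving out each library. The members, gene lists and ratios were chosen with earlier results of these data known. Named genes are the members, CASP6, CASP9, AXIN2, up to 3 genes per list, direction and comparison with the largest change at 1 CPM or more, neighbours, and genes most like a member. Not all of these are printed, and a ratio is not reported here. BIRC6, NOTUM and NKD2 lie outside this rule and were named after their values were seen. TNFAIP3 is named only as an entry shared between lists.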

Additional observations from a re-analysis of the deposited data

How the results depend on the processing

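No paired analysis was possible because the groups share no replicate numbers. Scaling moved the split between higher and lower calls. Calls at 3 h were 5201 higher and 5304 lower (49.5% higher), but 36.0% were higher with upper-quartile factors and 31.8% with library size alone, which moved the median of all genes from -0.01 to -0.17 and -0.22. At 6 h the share went from 50.5% to 39.3% and 32.8%, and the median from 0.02 to -0.13 and -0.22. RIPK1, XIAP, FADD, CFLAR, BIRC3 and CASP10 kept their direction against 0 h under all alternatives run; CASP10 was under the filter of 1 CPM in 3 libraries and has no value there. Against a minimum fold of 1.2, 2504 genes differed between 6 h and 3 h in place of 6871, and 1 member in place of 4; leaving out libraries gave 2 to 5 members, with CASP8 lost without 3 h replicate 5 (adjusted p = 0.0533) or 6 h replicate 11 (0.0566). CASP8 at 6 h was lost at that minimum fold (0.0680). Changes turned sign as follows, with upper-quartile factors and library size alone in that order: at 3 h, CASP8 -0.019 and -0.067, BIRC2 -0.076 and -0.13, CASP9 -0.15 and -0.20. With library size alone TMEM123 at 6 h was -0.015, DFFA at 6 h -0.032 and FADD between 3 h and 6 h -0.0013. CASP9 at 3 h was also -0.0045 with DESeq2, -0.0046 with its size factors, -0.044 with the 1 CPM filter, -0.0025 with the compared groups alone, and -0.047 to -0.00045 without untreated replicate 1 or 2 or 3 h replicate 7 (-0.0012); leaving out libraries gave up to 0.035. BIRC2 at 6 h was 0.0034 without untreated replicate 1 and 0.0037 without 6 h replicate 10, and leaving out libraries gave -0.079 at the lowest. CASP10 between 3 h and 6 h was -0.042 without 6 h replicate 9 and up to 0.237 without 3 h replicate 7, and the CASP10 to CASP8 ratio ran from -0.242 to 0.020 (0.011 without 3 h replicate 7). The cause of these moves beyond the scaling was not tested. CASP10 rests on 14 to 50 reads per library, which limits its precision.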
